A study of Mus musculus with 3 samples.

Results

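The phagocyte NADPH oxidase is represented here by 5 genes, *Cybb*, *Cyba*, *Ncf1*, *Ncf4* and *Rac2*, out of 27998 genes in each of the 3 count matrices. They were chosen by name for their place in 1 enzyme, and each symbol matched exactly 1 row of every matrix. The libraries came from the bone marrow, the blood and the injured tendon of 10-week-old male C57BL/6J mice, day 3 after a burn combined with an Achilles tenotomy, an injury that leads to heterotopic ossification. All 3 groups therefore carried the same injury, and no uninjured library was analysed here. How many mice went into a library is not stated. Marrow was flushed from bone and its red cells were lysed. Blood was spun on a Ficoll gradient and its mononuclear cells were collected before red cell lysis, and the tendon site was digested with enzymes. Blood neutrophils here are therefore those found in this mononuclear fraction, and need not stand for all neutrophils of blood. No cells were sorted. Because each tissue is 1 library, tissue, preparation and library cannot be told apart, and no p-value is given.

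The oxidase transfers electrons from NADPH to oxygen and so makes superoxide, the first product of the respiratory burst that neutrophils and macrophages use against microbes. *Cybb* encodes gp91phox, the catalytic subunit, which sits in the membrane with p22phox, the product of *Cyba*. At rest the organizer p47phox (*Ncf1*) and p40phox (*Ncf4*) lie in the cytosol, and on stimulation they move to the membrane, where the GTPase Rac2 completes the enzyme. Loss of gp91phox, p22phox or p47phox causes chronic granulomatous disease.

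In GRCm38, the build of the counts, *Cybb* (ENSMUSG00000015340) lies at chrX:9435252-9487771 on the minus strand, and *Cyba* (ENSMUSG00000006519) at chr8:122424776-122432930 on the minus strand. *Ncf1* (ENSMUSG00000015950) lies at chr5:134220053-134229625 on the minus strand. *Ncf4* (ENSMUSG00000071715) at chr15:78244801-78262580 on the plus strand and *Rac2* (ENSMUSG00000033220) at chr15:78559167-78572783 on the minus strand share a chromosome. In the GENCODE annotation *Cyba* overlaps Gm20388 and *Ncf1* overlaps *Gtf2ird2*, both on the opposite strand. The 250 bases before the RefSeq start (GRCm38.p6) of 3 of the genes are shown because *Cyba* was counted in stromal-like and NK-like cells, in which *Cybb* was at or near 0. Capitals mark a GC box (GGGCGG or its reverse complement CCGCCC), a short element of many widely used promoters. The RefSeq table held no entry for *Ncf4* and *Rac2*. The *Cybb* window lies inside the GENCODE span given above, because the annotations place the start of this gene differently. Only the RefSeq start was searched.

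Cybb, chrX:9469325-9469574, minus strand: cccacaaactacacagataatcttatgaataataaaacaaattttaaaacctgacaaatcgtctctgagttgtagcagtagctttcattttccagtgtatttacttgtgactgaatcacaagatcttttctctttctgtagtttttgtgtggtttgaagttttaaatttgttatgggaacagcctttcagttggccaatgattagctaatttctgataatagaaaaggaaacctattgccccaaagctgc
Cyba, chr8:122432941-122433190, minus strand: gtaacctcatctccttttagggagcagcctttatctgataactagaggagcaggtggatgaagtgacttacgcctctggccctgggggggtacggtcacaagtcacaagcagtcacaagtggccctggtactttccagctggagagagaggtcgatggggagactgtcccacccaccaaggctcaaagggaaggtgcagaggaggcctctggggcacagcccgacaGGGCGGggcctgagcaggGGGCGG
Ncf1, chr5:134229626-134229875, minus strand: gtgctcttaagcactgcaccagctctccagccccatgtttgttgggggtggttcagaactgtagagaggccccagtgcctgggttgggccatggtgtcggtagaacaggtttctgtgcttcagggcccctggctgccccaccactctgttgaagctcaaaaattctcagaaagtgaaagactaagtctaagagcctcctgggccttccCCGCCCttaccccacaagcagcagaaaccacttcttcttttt

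The GC box was found 2 times before *Cyba*, 24 and 6 bases upstream of the start, 1 time before *Ncf1*, and was not found before *Cybb*. It occurred on either strand in 32.7% of 32851 promoter windows of the same length. The part of the GC box in the cell classes that hold each gene was not tested. GAGGAA or TTCCTC, 1 form of the sequence bound by the myeloid factor PU.1 (*Spi1*), was in none of the 3 windows and in 23.3% of all windows. Other forms were not searched, and the shorter core GGAA is present in the *Cybb* window. The count therefore does not show that these windows lack a PU.1 site. The *Cybb* window had a GC content of 34%, the *Cyba* window of 60% and the *Ncf1* window of 54.4%.

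The matrices held 1855 cells in marrow, 2241 in blood and 5629 in tendon, with median depths of 22836, 8316 and 11082 unique molecular identifiers (UMIs, each standing for 1 captured RNA molecule). Between 1 and 6 barcodes were shared by any pair of libraries. Cells were clustered per library without the 5 genes and named from markers, and neutrophils were divided into maturity gates by their share of granule, cycling and mature transcripts. Levels are counts of a gene per 1000000 UMIs of a cell group (CPM), followed in parentheses by the exact 95% Poisson interval, which covers counting error only. A gene was called past the fold where 2 groups differed by 2-fold or more, and log2 ratios carry the exact binomial interval of the split of the UMIs. *S100a8*, which with *S100a9* defines neutrophils, took from 69465 CPM in granule-low tendon cells to 203525 in immature marrow cells, so levels of all other genes in neutrophils are lower on this scale than on one without such genes.

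Neutrophil-like cells made up 60.6% of the marrow cells kept and held 76.3% of that library's *Cybb* UMIs and 80.6% of its *Ncf1* UMIs. In blood the same class made up 18.5% of cells, and monocyte/macrophage-like cells, 21.4% of cells, held 87.2% of *Cybb* UMIs. The largest part of the *Ncf1* UMIs of blood lay in neutrophil-like cells, with 49.8% there and 36.5% in monocyte/macrophage-like cells. In tendon, monocyte/macrophage-like cells held 80.1% of *Cybb* and 61.2% of *Rac2* UMIs. The class with most *Cybb* UMIs was thus neutrophil-like in marrow and monocyte/macrophage-like in blood and tendon. These shares depend on the mix and depth of the cells in each library, and the blood library was a mononuclear fraction.

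**Figure D1:**
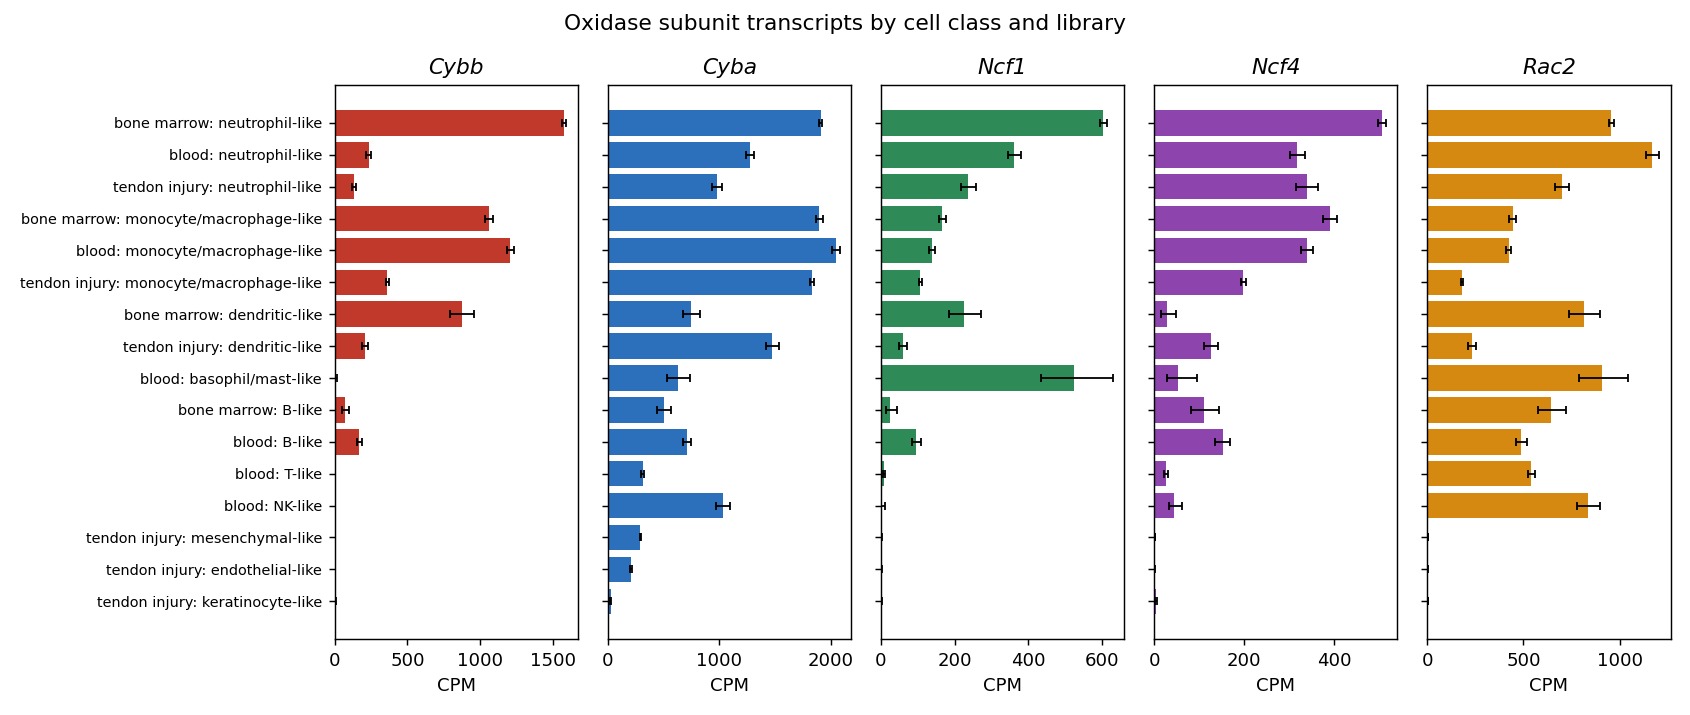
Level of each subunit gene in the cell classes of each library. Bars are CPM of the class (linear axis from 0) and error bars the 95% Poisson interval for counting error. *Cyba* was present in every class shown, whereas *Cybb*, *Ncf1* and *Ncf4* were close to 0 in mesenchymal-like, endothelial-like and keratinocyte-like cells.

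All 5 genes were higher in neutrophil-like than in lymphoid-like (T, B and NK) cells of blood, past 2-fold in 5 of 5. Of 10598 genes, 66.6% were past 2-fold in either direction, 16.1% higher and 50.4% lower. *Ncf1* differed most, at 362 against 27.1 CPM, a log2 ratio of 3.74 (3.55 to 3.94). *Rac2*, the hematopoietic Rac GTPase, differed least, at 1171 against 557 and a log2 ratio of 1.07 (1.02 to 1.13). With cells named one by one in place of clusters, *Rac2* was at 0.98 and 4 of 5 genes were past 2-fold. The membrane subunits parted in lymphoid cells. *Cyba* was at 1033 (968 to 1101) in NK-like cells, in which 0 UMIs of *Cybb* were counted, a count that allows up to 3.29 CPM. T-like cells held *Cybb* at 0.901 (0.331 to 1.96) and *Rac2* at 540.4 (523 to 558). B-like cells differed from both, with *Cybb* at 168 (151 to 186) in blood and 72.8 (50.7 to 101) in marrow.

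Stromal-like cells of the tendon (mesenchymal-, endothelial- and Schwann-like) carried *Cyba* almost alone. There 5 of 5 genes were past 2-fold higher in neutrophil-like cells. Of 13675 genes, 70.2% were past 2-fold in either direction, 14.4% higher and 55.7% lower. *Cyba* was at 291 (285 to 298) in mesenchymal-like and 207 (198 to 217) in endothelial-like cells, and made up 97.5% of the UMIs of the 5 genes in mesenchymal-like cells. *Cybb* was at 2.26 (1.72 to 2.92) and *Rac2* at 2.41 (1.85 to 3.09) in the same cells. The log2 ratio was 1.88 (1.81 to 1.94) for *Cyba* and 8.39 (8.06 to 8.75) for *Rac2*. Keratinocyte-like cells had the lowest *Cyba* level of the classes with 30 or more cells, at 25.3 (21.9 to 29.1). Of the other catalytic subunits of the family, *Nox4* was at 14.2 in mesenchymal-like and 3.91 in endothelial-like cells.

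Some smaller classes held only part of the set. Basophil/mast-like cells of blood (34 cells) had *Ncf1* at 525 (434 to 629) and *Rac2* at 911 (789.9 to 1045), with 0 UMIs of *Cybb*, which allows up to 13.5 CPM. The same class held *Cybb* at 34.6 (24.5 to 47.5) and *Ncf1* at 59.2 (45.7 to 75.4) in marrow (34 cells). In tendon (51 cells) the 2 genes had overlapping intervals, 83.9 (52.6 to 127) and 64.8 (37.8 to 104). The leading genes differed, with *Ccl3*, *Cpa3* and *Mcpt8* in blood and *Mcpt4*, *Cma1* and *Cpa3* in tendon. The tendon cluster also had *Gzma* and *Nkg7* among its leading genes and *C1qa* at 172 CPM. These groups need not be the same cell type, and the part of RNA from other cells was not tested, so the gap is described for blood alone. Dendritic-like cells of marrow (40 cells, led by *Siglech*, a plasmacytoid dendritic cell gene) showed a different gap, with *Cybb* at 872 (791 to 959.8) and *Ncf4* at 29.1 (15.9 to 48.9).

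Along neutrophil maturation in marrow the 5 genes did not move together. *Cybb* was at 623 (602 to 644) in promyelocyte-like cells (128 cells), 1577 (1552 to 1602) in cycling pre-neutrophils (256 cells) and 1995 (1969.7 to 2021) in immature neutrophils (521 cells). It was 534 (507 to 562) in mature neutrophils that still held granule transcripts (206 cells) and 182 (155 to 211) in those that did not (93 cells). The catalytic subunit's transcript thus peaked in immature cells, and none of these 5 intervals overlapped. From immature to granule-positive mature cells its log2 ratio was -1.90 (-1.98 to -1.83), and from there to granule-low cells -1.56 (-1.79 to -1.32).

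*Cyba*, the partner of gp91phox in the membrane, differed less over the same steps. It was at 1975 (1938 to 2013), 1993 (1965 to 2021) and 1976 (1950.4 to 2001) in the first 3 gates, whose intervals overlap, and at 1230.5 (1159.8 to 1304) in granule-low mature cells. *Ncf1* went from 308 (294 to 324) to 733 (717 to 749) and back to 421 (380.1 to 465). *Ncf4* was highest one gate earlier, at 562 (547 to 577) in cycling pre-neutrophils. *Rac2* went from 691 (669 to 713) in promyelocyte-like cells to 1192 (1152 to 1233) in granule-positive mature cells, and its interval in granule-low cells, 1140.2 (1072 to 1211), overlaps the latter.

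When the immature and mature marrow neutrophils were ordered by the ratio of mature to granule transcripts and cut into 8 equal groups, *Cybb* was between 1952 and 2237 in the first 4, then 1406, 753, 330.4 and 191. *Ncf1* was highest in the fifth group, at 836 (796 to 877), at which *Cybb* was already below the first 4. This interval overlaps that of *Ncf1* in the fourth group, 777 (739 to 815), so the place of its peak is not settled. *Rac2* went from 861 in the first group to 1225 in the seventh. As a share of the UMIs of the 5 genes, *Cybb* went from 32.3% in immature to 5.51% in granule-low mature cells of marrow, and *Rac2* from 16.0% to 34.6%. This share does not depend on the total of all UMIs, but the share of 1 gene rises when another gene falls. The 5 genes together were at 6184 CPM in immature and 3300 in granule-low cells, so the *Rac2* share is not a measure of its level.

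**Figure D2:**
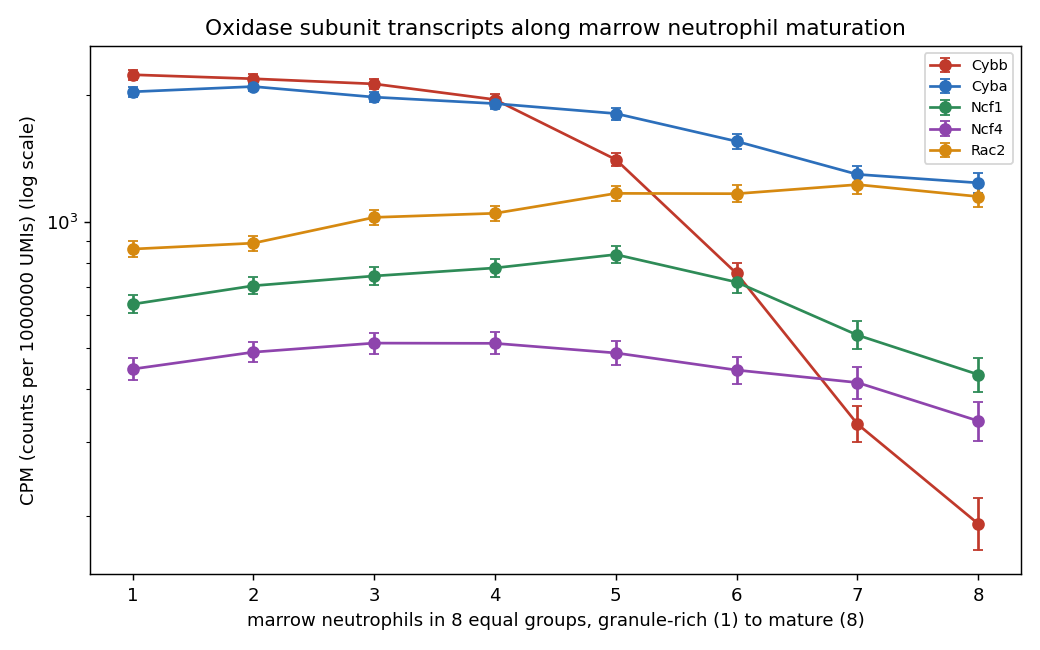
Immature and mature marrow neutrophils in 8 groups of equal size, ordered by the ratio of mature to granule transcripts. Points are CPM on a log axis and error bars the 95% Poisson interval. *Cybb* went from 2237 in the first group to 191 in the last, while *Rac2* went from 861 to 1148.

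Between the ends of this series the result depended on the settings. Here 0 of 5 genes were past 2-fold between all mature and promyelocyte-like cells, beside 69.3% of 8862 genes, with *Ncf1* at a log2 ratio of 0.91 (0.82 to 1.004) and *Rac2* at 0.77 (0.71 to 0.83). A cluster of 107 marrow cells led by *Srm*, *Phgdh* and *Fkbp11*, with *Ctsg*, *Cd34* and *Mpo* among its 8 leading genes, stayed unnamed, and held *Cybb* at 94.6, *Ncf1* at 105 and *Rac2* at 326 CPM. Under 7 other settings 2 or 3 genes were past 2-fold, *Ncf1* and *Rac2* each time, under an eighth *Ncf1* alone was, and the log2 ratio of *Cybb* ranged from -0.64 to 1.03 over all settings, so its direction between these ends is not settled.

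**Figure D3:**
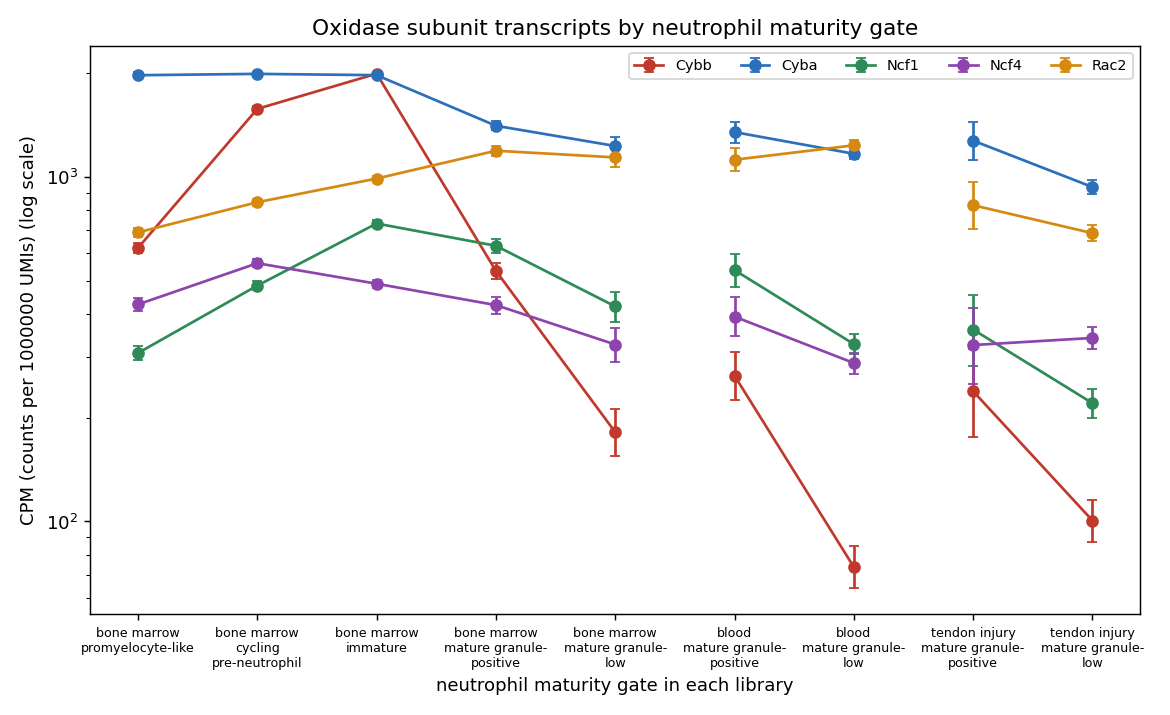
Level of each subunit gene in the neutrophil maturity gates of marrow, blood and tendon. Points are CPM on a log axis, error bars the 95% Poisson interval, and lines join gates of 1 library. *Cybb* was at 1995 in immature marrow cells and, in another library, at 73.7 in granule-low blood cells. *Rac2* was lower in the mature gates of tendon, at 687 and 828, than in those of blood and marrow, between 1122 and 1236. Blood cells came from the mononuclear fraction.

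In mature neutrophils *Cybb* was 4.15-fold lower in blood than in marrow, at 108 (97.0 to 119.7) against 448 (427 to 469.7). It was the 1 of 5 genes past 2-fold, beside 11.9% of 6648 genes. The blood cells came from the mononuclear fraction alone, and the part of that preparation in the ratio was not tested. *Rac2* was at 1216 (1179 to 1254) in blood and 1179 (1145 to 1215) in marrow, with overlapping intervals. The mixture of gates differed between the libraries, since granule-low cells were 329 of 372 mature cells in blood and 93 of 299 in marrow. Within granule-low cells *Cybb* was at 73.7 (63.9 to 84.7) in blood and 182 (155 to 211) in marrow, a log2 ratio of -1.30 (-1.60 to -0.996). This gate does not match maturity fully. Its marrow cells held more of the granule transcripts *Ngp*, at 323 against 156 CPM in blood, and *Camp*, at 60.9 against 13.2. The part of this difference in the *Cybb* ratio was not tested. With whole clusters staged in place of single cells, the log2 ratio over all mature cells was -0.97 and 0 genes were past 2-fold.

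Mature neutrophils of the tendon had less *Rac2* than those of the blood mononuclear fraction, at 700.0 (665 to 736) against 1216 (1179 to 1254). The log2 ratio was -0.80 (-0.88 to -0.71). *Ncf1* was lower too, at 233 (213 to 255) against 365 (344 to 386). None of the 5 genes was past 2-fold, beside 32.9% of 6540 genes, and without genes over 1% of UMIs *Rac2* was, at -1.05. *Ncf4* differed little, at 339.6 (316 to 365) in tendon and 307 (289 to 327) in blood. For *Cybb* the log2 ratio was 0.07 (-0.17 to 0.31), and it was -0.20 without a shallow cluster of 197 tendon neutrophils. It ranged from -0.81 with whole clusters staged to 0.66 with doublets kept, and within granule-low cells *Cybb* was at 101 (87.1 to 116) in tendon, a log2 ratio of 0.45 (0.16 to 0.74) to blood, so no direction is given over all mature cells. Tendon granule-low cells had a median of 3492 UMIs against 8062 in blood, and the part of depth in these differences was not tested.

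To compare the share of cells with at least 1 UMI, every cell was thinned to 1000 UMIs. *Cybb* was then detected in 85.7% (82.4% to 88.6%) of immature marrow cells, 19.4% (11.9% to 28.9%) of granule-low marrow cells, 7.36% (4.77% to 10.8%) of granule-low blood cells and 6.31% (4.33% to 8.84%) of granule-low tendon cells (exact Clopper-Pearson intervals). The intervals of blood and tendon overlap, and since the level in CPM was the higher in tendon, no order is read from their shares. Without thinning the shares were 99.6%, 60.2%, 29.2% and 14.6%, at median depths of 22213, 9687, 8062 and 3492 UMIs. In T-like cells of blood, which should lack the gene, the unthinned share was 0.406% at a median of 8802 UMIs. Thinning left out 2, 0, 3 and 15 cells of the 4 neutrophil groups. Of the 5 genes, 3 or more were detected together in 77.5% of thinned immature marrow cells, 26.4% of granule-low blood cells and 17.3% of granule-low tendon cells.

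Against monocyte/macrophage-like cells of the same library, *Ncf1* and *Rac2* were past 2-fold higher in neutrophil-like cells in all 3 tissues. For *Ncf1* the log2 ratio was 1.85 (1.77 to 1.94) in marrow, 1.40 (1.28 to 1.51) in blood and 1.15 (1.02 to 1.29) in tendon. For *Rac2* it was 1.11 (1.05 to 1.17), 1.47 (1.40 to 1.53) and 1.97 (1.88 to 2.05). *Cybb* changed sign between tissues, with 0.57 (0.54 to 0.61) in marrow, -2.37 (-2.47 to -2.28) in blood and -1.45 (-1.62 to -1.28) in tendon. The median of all genes was -1.01, -1.02 and -1.12 in the same comparisons, so a typical gene was lower in neutrophil-like cells. *Cybb* lay closer to this median in tendon, where 52.7% of all genes were past 2-fold lower, than in marrow or blood. The counts past 2-fold were 2 of 5 in marrow, 3 of 5 in blood and 3 of 5 in tendon, beside 59.6%, 61.6% and 63% of all genes in either direction. By direction, 2 of 5 were higher in each tissue, beside 9.33%, 10.9% and 10.2% of all genes. In blood and tendon 1 of 5 was lower, beside 50.7% and 52.7%. In tendon 2 of these calls depended on the processing. *Ncf1* was at 0.26 with clusters named from the library list alone, and *Cybb* at -0.89 with doublets kept and -0.49 with cells named one by one.

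Within marrow the sign of *Cybb* differed between the gates. Classical monocytes of marrow held *Cybb* at 1297. Cycling pre-neutrophils and immature neutrophils were above them, at 1577 and 1995. Promyelocyte-like cells, the least mature, were below them at 623, as were mature neutrophils at 448, a log2 ratio of -1.53 (-1.61 to -1.45). In blood the log2 ratio of mature neutrophils to classical monocytes was -3.42 (-3.58 to -3.27). Without genes over 1% of UMIs, the median of all genes moved by 0.86, 0.63 and 0.43 on the log2 scale in the marrow, blood and tendon comparisons of the classes, and 4 of 5 genes were then past 2-fold in marrow, all but *Cyba*.

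**Figure D4:**
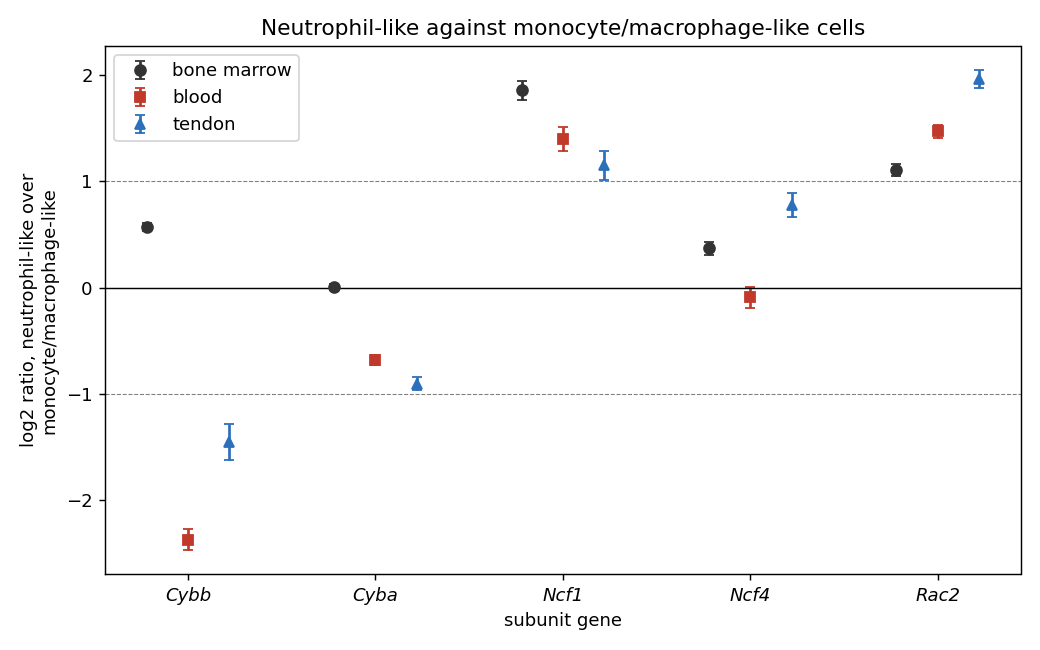
Each gene's level in neutrophil-like cells over that in monocyte/macrophage-like cells, as a log2 ratio, in the 3 libraries. Points above 0 are higher in neutrophil-like cells, dashed lines mark 2-fold and error bars are exact 95% binomial intervals for counting error. *Cybb* lies above 0 in marrow and below 0 in blood and tendon, and *Ncf1* and *Rac2* lie above the upper dashed line in all 3.

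Monocyte/macrophage-like cells held more *Cybb* in blood than in tendon. Blood monocytes (classical and nonclassical) had 1216 (1189 to 1243) and tendon monocyte/macrophage-like cells 363 (355 to 369.9), 3.35-fold lower. *Rac2* was 2.48-fold lower, at 179 (174 to 184) against 445 (429 to 461). *Cyba* was nearly level, at 1835 (1819 to 1851) against 1992 (1958 to 2026). Thus 2 of 5 genes were past 2-fold, both lower in tendon, beside 32.5% of 11668 genes in either direction and 12.7% lower. Of the tendon cells, 1287 of 2176 were macrophages rich in complement C1q transcripts. The C1q-low cells alone differed less from blood monocytes, with *Cybb* 2.39-fold lower and *Rac2*, at 242 (232 to 252), 1.84-fold lower and not past 2-fold. In classical monocytes of blood and marrow the levels of *Cybb* were closer, 1155 (1127 to 1184) and 1297 (1262 to 1332). Nonclassical monocytes of blood had the highest *Cybb* of the monocyte gates with 30 or more cells, 1537 (1463 to 1614).

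Within the tendon, the C1q-high macrophages (1287 cells) differed from C1q-low cells (889 cells) most in *Ncf4*, at 138 (132 to 143) against 312 (301 to 324). *Ncf4* was the 1 of 5 genes past 2-fold, beside 21.2% of 11332 genes. *Cybb* was at 287 (279 to 295) against 508 (494 to 523). *Ncf1* went the other way, at 120.1 (115 to 125) against 80.3 (74.6 to 86.4). The few C1q-high cells of blood (42 cells) had *Cybb* at 1148 (1088 to 1211), a level near that of blood monocytes rather than of tendon C1q-high cells. The blood cluster with C1q genes in its lead (37 cells) also had *Prg4*, *Alox15*, *Retnla* and *Cd5l* among its leading genes. For *Ncf4* the likeness went the other way. This cluster had it at 108 (89.7 to 129), nearer to tendon C1q-high cells than to the blood monocyte cluster led by *F13a1*, at 396 (380 to 412). Whether these cells were circulating was not tested. Of 2176 tendon cells in the class, 159 lay within 2-fold of the C1q gate. Further tendon clusters, of 254 cells led by *Arg1*, *Ppbp* and *Spp1* and of 172 cells led by *Acp5*, *Mmp9* and *Atp6v0d2*, stayed unnamed and had *Cybb* at 277 and 194.

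Genes that work with the oxidase were described from fixed lists. In mature against promyelocyte-like marrow cells, 50.6% of all genes were past 2-fold lower and 18.7% higher, with a median log2 ratio of -1.04. Of 6 oxidase partners, 1 was past 2-fold higher in mature cells and 2 were lower. The lower genes were the proton channel gene *Hvcn1* at a log2 ratio of -4.24 and the small GTPase gene *Rap1a* at -1.02. *Rac1* was at 0.27 and *BC017643* at 0.29, neither past 2-fold. Of 12 upstream activators, 10 were past 2-fold higher in mature cells and 0 lower, among them the formyl peptide receptor genes *Fpr1* at 7.83 and *Fpr2* at 6.60. Of 7 enzymes that use superoxide or peroxide, 6 were past 2-fold lower and 0 higher. These include *Mpo* at -9.76, which is 1 of the azurophil transcripts that define the promyelocyte-like gate. The direction of *Mpo* was therefore fixed by the gate and is not a result.

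Between mature neutrophils of blood and marrow, 0 of 12 upstream activators and 0 of 5 tested genes of NADPH supply were past 2-fold, beside 11.9% of all genes. Between mature neutrophils of tendon and blood, 15.8% of all genes were past 2-fold lower in tendon and 17.1% higher. Of 5 tested genes of NADPH supply, 3 were lower and 0 higher, *G6pdx* at -1.62, *Tkt* at -1.49 and *Pgd* at -1.09. Of 5 tested enzymes that use superoxide or peroxide, 3 were higher, among them the mitochondrial superoxide dismutase gene *Sod2* at 5.16 and *Prdx1* at 2.42, and 1 was lower, the glutathione peroxidase gene *Gpx1* at -1.17. Of 3 transcription factors known to act at the *Cybb* promoter, *Spi1* was at 407 in immature and 672 in granule-low marrow neutrophils. *Irf8* was at 0.513 in immature neutrophils and 209 in classical monocytes of marrow. The part of these factors in the level of *Cybb* was not tested.

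Over 30 groups of cells with at least 30 cells each, the genes named for levels (log2 of CPM plus 1) most like *Cybb* by Pearson r were *Ceacam1* (0.87) and *Clec12a* (0.87). For *Cyba* they were *Tm6sf1* (0.88), *Sla* (0.84) and *Nckap1l* (0.84), for *Ncf1* *Nfam1* (0.93) and *Rgs18* (0.92), for *Ncf4* *Actr3* (0.92) and *Gmip* (0.91) and for *Rac2* *Hmha1* (0.96), *Arhgap30* (0.95) and *Coro1a* (0.95). Among the 5 genes, the pair most alike was *Ncf1* and *Ncf4* (0.86) and the pair least alike *Cybb* and *Rac2* (0.51). These values describe groups that share libraries and depth, and 10414 genes were candidates.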

How the data were processed

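Single-cell 3′ v3 libraries (10x Genomics) were made from bone marrow, blood and injured tendon. The deposited matrices hold raw UMI counts per gene and cell, made by the authors with Cell Ranger 5.0.1 on mm10, per the submitters' processing notes, with no normalization. Cells with fewer than 200 genes or over 20% mitochondrial UMIs were removed (15, 57 and 651 in marrow, blood and tendon), then the highest doublet scores (27, 38 and 198 cells). Cells were clustered per library with scanpy 1.11.5 on 2000 variable genes, the 5 genes and the neutrophil stage markers left out, with 30 principal components, 15 neighbours and Leiden resolution 1. A cluster took the class with most markers among its 100 leading genes, taken against its library and against the median cluster, with at least 3 markers and a lead of 2, and stayed unnamed where another class had more markers in either top 10. This naming rule and the gates were fixed only once the clusters were known, and 3 other naming rules tried on the way were kept as alternatives. Unnamed cells numbered 203 in marrow, 0 in blood and 534 in tendon. Gates used each cell's share of UMIs: 1% azurophil, 0.1% cycling, 0.5% mature, 0.1% granule and 0.1% C1q transcripts.

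UMIs were summed per group and divided by the group's total. With 1 library per tissue there was no test. Genes with at least 20 UMIs in both groups together formed the background of each comparison, and a group at 0 took a floor of 3 counts. The named genes were the 5 members in each class with 30 or more cells, and of each fixed list the genes past 2-fold with the largest log2 ratios and at least 100 UMIs, beside *Nox4*, *Spi1*, *Irf8*, *Pgd*, *Gpx1*, *Rac1* and *BC017643*, which were named for their role or after their values were seen. Some genes that the rule names, the likeness lists included, are not reported here. The members and lists were chosen with earlier results of these data known. The interval and ratio code was tested on simulated data. Depth per cell sets the detection shares, which were therefore compared after thinning to 1000 UMIs. Intervals and floors cover counting error only, not variation between animals.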

Additional observations from a re-analysis of the deposited data

Results flagged for a closer look

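*Cybb* was picked out because the same contrast, neutrophil-like against monocyte/macrophage-like cells, had opposite signs between tissues. Its log2 ratio was 0.57 in bone marrow, -2.37 in blood and -1.45 in tendon, where the median of all genes was -1.01, -1.02 and -1.12. The difference between tissues was not tested, since each tissue is 1 library. The maturity gates were set over neutrophil-like and promyelocyte-like clusters together. In marrow they held 128 promyelocyte-like cells, 256 cycling pre-neutrophils, 521 immature and 299 mature cells. Immature and mature cells numbered 12 and 372 in blood, and 3 and 536 in tendon. The part of this mixture in the sign was not tested.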

How the results depend on the processing

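The 10 comparisons of the 5 genes were repeated under up to 14 alternatives, of which 4 were chosen after seeing the data: 3 other rules for naming clusters, and leaving out the shallow tendon neutrophil cluster. Of 640 log2 ratios, 610 kept their sign, and no ratio past 2-fold as reported changed sign. The sizes varied to different degrees. For neutrophil-like against monocyte/macrophage-like cells, *Rac2* in tendon ranged from 1.29 to 2.39 and *Cybb* in blood from -3.29 to -1.74. For tendon against blood monocytes, *Ncf1* ranged from -0.36 to -0.22. For mature against promyelocyte-like marrow neutrophils, *Cybb* was at -0.48 as reported and reached 1.03 among the alternatives. The count for mature against promyelocyte-like marrow neutrophils, 0 as reported, was 2 with no cell filter, doublets kept, resolution 0.5, resolution 2, cell by cell naming or genes over 1% of UMIs left out, 3 with the members kept among the variable genes, and 1 with naming by the library list alone. In these settings the promyelocyte-like group changed size or the totals changed. Leaving out genes over 1% of UMIs also gave 4 in place of 2 for neutrophil-like against monocyte/macrophage-like marrow cells, and 1 in place of 0 for mature neutrophils of tendon against blood. With stage clusters in place of gates, the count for mature neutrophils of blood against marrow was 0 in place of 1. The tendon count for neutrophil-like against monocyte/macrophage-like cells, 3 as reported, was 2 with doublets kept, cell by cell naming or naming by the library list alone, and 4 without genes over 1% of UMIs. Under 4 naming alternatives the count for tendon against blood monocytes was 3 in place of 2, with *Ncf4* added. No paired analysis was possible because each group is 1 library, so the groups share fewer than 2 replicate numbers. With 1 library per tissue the spread between animals is unknown, and the lower depth of tendon neutrophils limits in how many of them *Cybb* can be detected.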
